A study of Arabidopsis thaliana with 30 samples.

Results

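The antioxidant enzyme genes are 40 genes that encode the enzymes removing superoxide and hydrogen peroxide in the plant cell, together with the enzymes that recycle ascorbate and glutathione. They were taken from the 27417 genes of the count table by family: 8 ascorbate peroxidases (APX), 3 catalases (CAT), 7 superoxide dismutases (SOD), 8 glutathione peroxidases (GPX), 3 dehydroascorbate reductases (DHAR), 5 monodehydroascorbate reductases (MDAR), 2 glutathione reductases (GR) and 4 peroxiredoxins (PRX). Their expression was measured by RNA-seq in shoots of Arabidopsis thaliana Col-0 plants. For 3 days the roots received either plain water or ethanol at 10 mM. Watering was then stopped, and shoots were collected at the end of the pretreatment (day 0 of drought, 0 DAD) and again after 1, 3, 5 or 7 days without water (1 DAD to 7 DAD). This gives 10 groups of 3 libraries, 5 in the water arm and 5 in the ethanol arm. All plants met drought after 0 DAD and no library of later days came from watered plants, so drought, age and time of harvest cannot be told apart in the changes from 0 DAD.

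Superoxide dismutases turn superoxide into hydrogen peroxide. Catalases break down hydrogen peroxide in peroxisomes, where photorespiration and fatty acid oxidation make it. Ascorbate peroxidases reduce it with ascorbate in the cytosol, the chloroplast and the peroxisome membrane. The oxidized ascorbate is returned by MDAR and DHAR, and glutathione reductase keeps glutathione reduced for DHAR. Peroxiredoxins and the plant glutathione peroxidases use thiols, mostly from thioredoxin, and the chloroplast peroxiredoxins guard the photosynthetic apparatus. By the known location of the proteins, 15 members were placed in the chloroplast, 10 in the peroxisome, 9 in the cytosol and 6 elsewhere. Proteins with 2 locations were put under the organelle, which concerns SAPX, MDAR6 and GR2 (chloroplast, also mitochondria), FSD1 (chloroplast, also cytosol) and DHAR1, MDAR1 and GR1 (peroxisome, also cytosol).

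Library totals ran from 3625884 to 14735127 counts. Levels are given as CPM, the count of a gene scaled to a common library size, with library totals scaled by the TMM method, and changes as log2 fold changes ± SE from an edgeR quasi-likelihood test on the counts of all 30 libraries. A gene is called where its p-value, adjusted by Benjamini and Hochberg over the 19249 genes tested, was under 0.1. Of the 40 members 38 were tested, and GPX4 and PER1 fell below the filter on low counts. The leaf markers (RBCS1A, LHCB1.1, BCA1, RCA and PSBP1) had a summed level of 3357 to 5587 CPM in water 7 DAD against 47850 to 57120 CPM in water 0 DAD and 24450 to 28330 CPM in ethanol 7 DAD. The root markers summed to at most 7.26 CPM in any library and the seed markers to at most 5.11 CPM. The flower markers summed to 12.4 to 26.2 CPM in water 0 DAD, 66.5 to 159 CPM in water 7 DAD and 180.2 to 227 CPM in ethanol 7 DAD, and their part in the results was not tested. In these whole shoots, fewer cells of a type and less RNA per cell cannot be told apart.

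At 7 DAD the antioxidant genes of the water-treated shoots had separated by compartment. Of the 15 chloroplast members 12 had fallen against water 0 DAD and 1, GR2, had risen, with a median log2 fold change of -1.63 and 11 of them at least 2-fold lower. Of the 10 peroxisomal members 7 had risen and 1, CAT3, had fallen, with a median of 0.90. The 9 cytosolic members were split, with 3 higher, 3 lower and a median of -0.08. DHAR1, MDAR1 and GR1, which rose and were counted as peroxisomal, also lie in the cytosol. Counts for peroxisome and cytosol, here and below, depend on where these genes were placed. Over all genes tested the median was -0.01, and 70% were called in either direction (34.5% higher and 35.5% lower), against 30 of the 38 members (13 higher and 17 lower).

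The arms differed at the same day, and the water 7 DAD libraries enter this comparison too. Between ethanol and water at 7 DAD, 29 of the 38 members were called, 14 higher and 15 lower in ethanol, beside 60.5% of all genes (32% higher and 28.6% lower). Of the 15 chloroplast members 11 were higher in ethanol and 2 lower, with a median log2 difference of 1.13. Of the 10 peroxisomal members 2 were higher and 6 lower, with a median of -0.47, and of the 9 cytosolic members none was higher and 4 were lower, with a median of -0.36. The median over all genes was 0.05. The leaf markers, which are nuclear genes for chloroplast proteins, differed between the same groups in the same direction as the chloroplast members (log2 2.44 for RBCS1A to 2.81 for LHCB1.1, 5 of 5 higher), and their part in the members' differences was not tested.

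**Figure D1:**
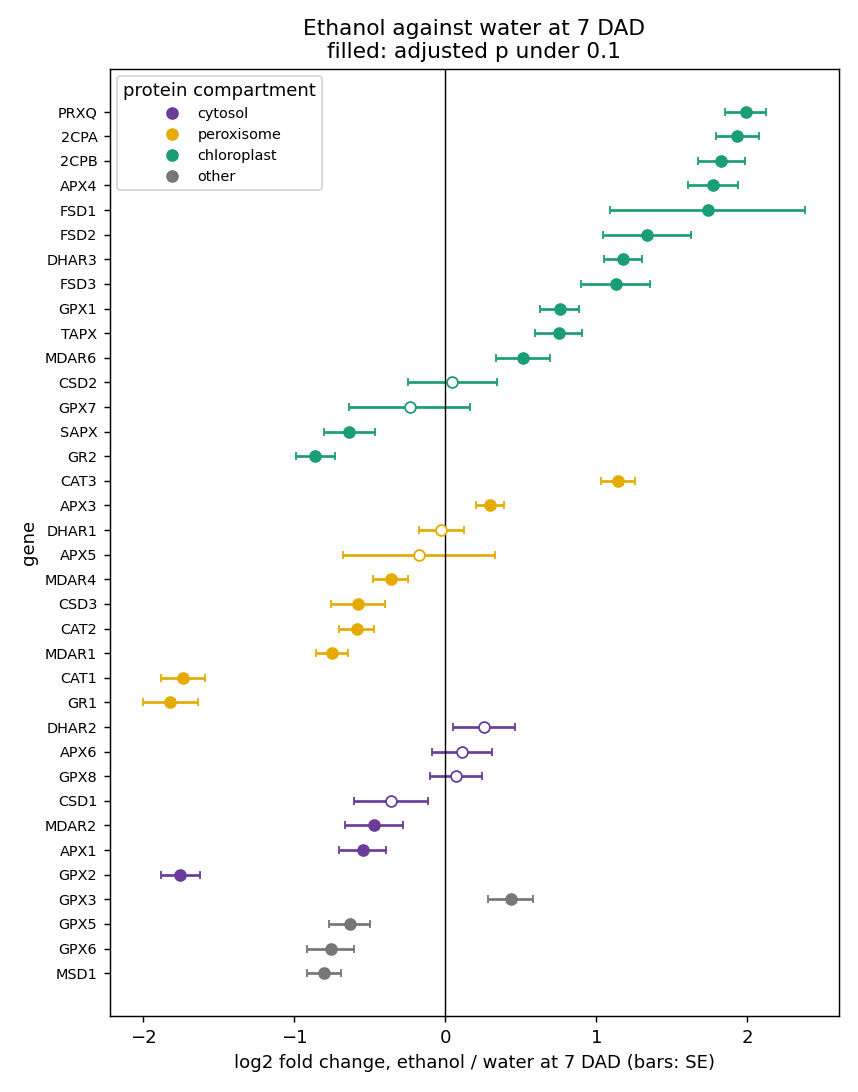
Log2 fold change of ethanol against water at 7 DAD for 36 members, with bars for the SE, coloured by the compartment of the protein and filled where the adjusted p was under 0.1 (APX2 and MDAR3, near 0 counts in one or both groups, and the untested GPX4 and PER1 are left out). The chloroplast peroxiredoxins lie highest, at 1.83 to 1.99, and GR1, GPX2 and CAT1 lie lowest, at -1.82 to -1.74.

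The copper-zinc superoxide dismutases of the chloroplast and cytosol share a regulator, and its sequence is shown for that reason. The copper-zinc enzymes CSD1 (cytosol) and CSD2 (chloroplast) and their copper chaperone CCS are known targets of miR398, a microRNA that is made when copper is short and lowers these transcripts, while the iron enzyme FSD1 is made instead. The mature miR398 arms were read from the RefSeq annotation of assembly TAIR10.1, at chr2:1041012-1041032 for miR398a, chr5:4691107-4691127 for miR398b and chr5:4694778-4694798 for miR398c, all on the plus strand. Capitals mark the seed, bases 2 to 8, which is the same in the 3 forms.
miR398a-3p: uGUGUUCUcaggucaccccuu
miR398b-3p: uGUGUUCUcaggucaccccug
miR398c-3p: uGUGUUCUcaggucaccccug

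The 2 last forms are identical and differ from miR398a-3p in the last base. The best matches in the transcripts of their known targets are shown 5′ to 3′, with capitals for the bases that do not form a Watson-Crick pair with the microRNA (mismatches, G:U pairs and bulged bases). Matches were scored with 1 for a mismatch or bulge and 0.5 for a G:U pair, so that a lower score is a closer match.
CSD1: aagggguUUccugagaUcaca
CSD2: UGCgggugaccugGgAaacaUa
CCS: aUUgggAgaccugGgaacacU

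The CSD1 match lies in the 5′ UTR between bases 2827177 and 2827685 of chromosome 1, plus strand, across an intron, and scored 3 against miR398a-3p, a score that 3 of 27438 transcripts (0.0109%) reached. The CSD2 match lies in the coding sequence at chr2:12015572-12015593, plus strand, holds 1 bulged base and scored 4 against miR398b-3p, a score that 20 transcripts (0.0729%) reached. The CCS match lies in the coding sequence at chr1:4267521-4267541, minus strand, and scored 4.5 against miR398a-3p, a score reached by 97 transcripts (0.354%). These are matches of letters, and the levels of the microRNA were not analysed here.

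CSD2 (AT2G28190) dropped after the first day of drought in both arms, and was near its 0 DAD level again at 3 DAD in water. In the water arm its CPM was 922, 723 and 754 at 0 DAD, 378, 290.1 and 409.7 at 1 DAD, 867, 899.5 and 1079 at 3 DAD, 903, 452 and 692 at 5 DAD and 341, 353 and 315 at 7 DAD. In the ethanol arm it was 864, 895 and 878 at 0 DAD, 178, 596 and 198 at 1 DAD, 538, 835 and 989.7 at 3 DAD, 476, 642 and 726 at 5 DAD and 334, 401 and 308 at 7 DAD. The 1 DAD libraries lay below all 0 DAD libraries in both arms, and 1 ethanol library of 1 DAD, replicate 2, stood well above the other two. The change at 1 DAD was -1.15 ± 0.29 in water (edgeR adjusted p = 0.0114) and -1.44 ± 0.30 in ethanol (edgeR adjusted p = 0.00111). At 1 DAD 6 of 38 members were called in water, 3 higher and 3 lower, beside 12.9% of all genes (5.81% higher and 7.07% lower). In ethanol 11 were called, 5 higher and 6 lower, beside 18.3% (9.35% higher and 8.9% lower). CSD2 fell again by 7 DAD, by 1.25 ± 0.30 in water and 1.34 ± 0.30 in ethanol on the log2 scale, and was, with GPX7 (AT4G31870), a chloroplast member not called between the arms at 7 DAD (0.05 ± 0.29).

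CSD1 (AT1G08830) had the same dip. Its CPM in water was 476, 406 and 325 at 0 DAD, 256, 163 and 225 at 1 DAD, 381, 454 and 412 at 3 DAD, 433, 315 and 422 at 5 DAD and 317, 459.9 and 354 at 7 DAD. In ethanol it was 560.2, 382 and 359 at 0 DAD, 121, 305 and 136 at 1 DAD, 299, 427 and 429 at 3 DAD, 289, 378 and 350.4 at 5 DAD and 290.3, 339.8 and 252 at 7 DAD. At 1 DAD the change was -0.90 ± 0.25 in water (edgeR adjusted p = 0.0192) and -1.21 ± 0.25 in ethanol (edgeR adjusted p = 0.00118), and in both arms all 3 libraries lay below those of 0 DAD. The water call at 1 DAD was lost without water 0 DAD replicate 1 (-0.76, adjusted p = 0.111) or without water 1 DAD replicate 2 (-0.74, adjusted p = 0.123, edgeR in both cases). At 7 DAD CSD1 stood at -0.10 against 0 DAD in water, within its SE of 0.25, unlike CSD2.

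The chaperone CCS, which loads copper into both enzymes and is not one of the 40 genes, followed them. Its CPM fell from 93.3, 81.7 and 86.8 to 50.1, 28.2 and 51.1 in water and from 106, 91.5 and 102 to 24.1, 73.0 and 27.1 in ethanol between 0 and 1 DAD, a change of -1.0 ± 0.30 and -1.26 ± 0.30. Ethanol 1 DAD replicate 2 was again the high library of its group, at 73.0 CPM. CSD3 (AT5G18100), the peroxisomal copper-zinc enzyme, had 22.6, 28.8 and 31.0 CPM at 0 DAD and 28.3, 24.7 and 30.9 at 1 DAD in water, without a dip.

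FSD1 (AT4G25100) had its highest mean at 1 DAD in both arms, with a wide spread between libraries. Its CPM in water was 108, 392 and 475 at 0 DAD, 624, 899 and 570.1 at 1 DAD, 239, 41.1 and 77.1 at 3 DAD, 114, 310.2 and 187 at 5 DAD and 118, 65.9 and 70.1 at 7 DAD. In ethanol it was 49.5, 414 and 332 at 0 DAD, 759.8, 395 and 1080.1 at 1 DAD, 353, 37.5 and 175 at 3 DAD, 252, 258 and 225 at 5 DAD and 244, 261 and 342 at 7 DAD. The change at 1 DAD, 1.1 ± 0.63 in water and 1.49 ± 0.64 in ethanol, did not pass the test (edgeR adjusted p = 0.327 and 0.131). Ethanol 1 DAD replicate 2, the library with the highest CSD1, CSD2 and CCS of its group, had the lowest FSD1. COPT2, a copper transporter induced by copper shortage, was at 0.418, 2.49 and 1.95 CPM at 0 DAD and 4.36, 11 and 5.13 CPM at 1 DAD in water, a change of 2.08 ± 0.61, and at 0, 0.528 and 0 and 11.8, 5.24 and 10.4 CPM in ethanol. Of the remaining copper economy genes tested, CCH was called higher at 1 DAD in water (0.74) and ethanol (1.07). COPT1 and YSL2 were called higher in ethanol (0.54 and 2.54) but not in water (0.19 and 0.07). FRO4, SPL7, PETE1 and PETE2 were called in neither arm at 1 DAD. The part of copper or of miR398 in these values, here and at 7 DAD, was not tested.

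**Figure D2:**
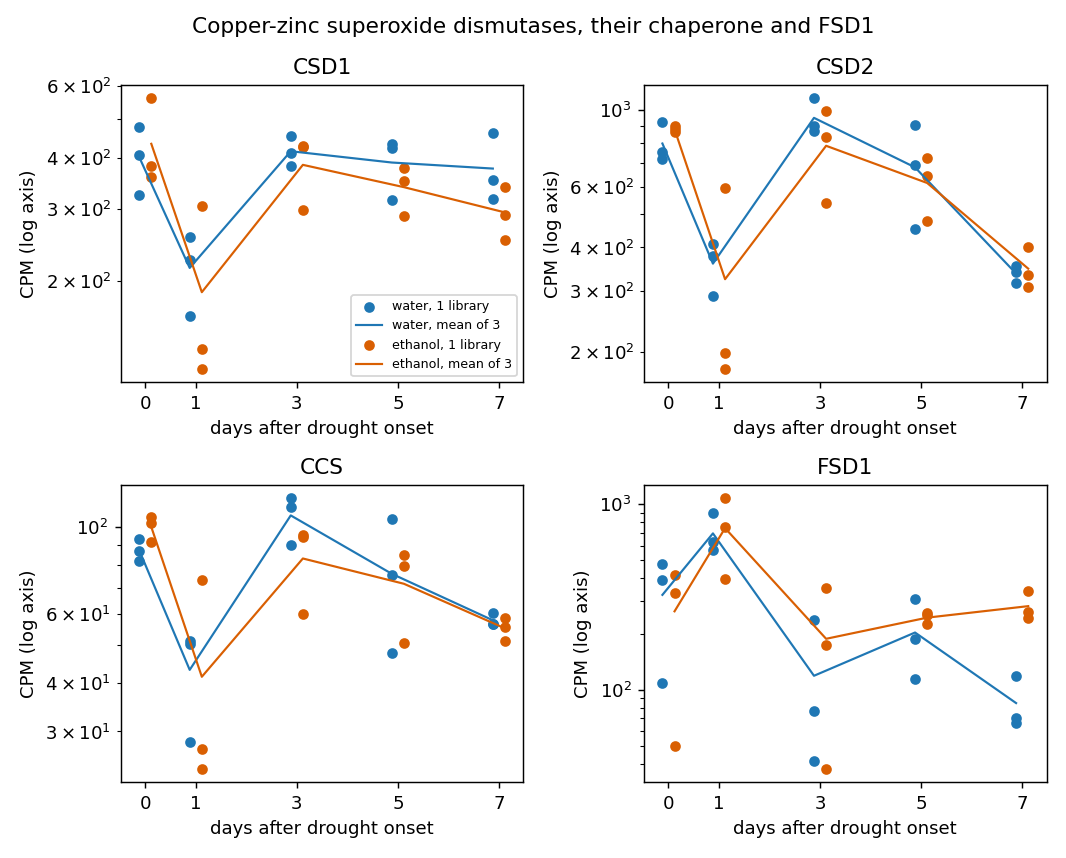
CPM (log axis) of CSD1, CSD2, their chaperone CCS and FSD1 in each library against days after drought, with points for libraries, lines for the mean of 3 and colours for the arm. CSD1, CSD2 and CCS dip at 1 DAD, where FSD1 is highest, and at 7 DAD FSD1 is at 65.9 to 118 CPM in water and 244 to 342 CPM in ethanol.

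At 7 DAD the iron superoxide dismutases separated the arms. FSD1 fell by 1.94 ± 0.65 on the log2 scale in water, although 1 library of water 0 DAD lay within the 7 DAD range, and stood at 0.09 ± 0.63 in ethanol. Its difference between the arms at 7 DAD was 1.74 ± 0.65 (edgeR adjusted p = 0.0241), with the 3 ethanol libraries above the 3 water libraries. FSD2 (AT5G51100), which with FSD3 (AT5G23310) forms the superoxide dismutase of the plastid nucleoid, had 15.5, 14.2 and 19.3 CPM in water 0 DAD, 3.36, 2.23 and 6.84 in water 7 DAD, 12.6, 13.5 and 10.3 in ethanol 0 DAD and 11.5, 7.18 and 13.4 in ethanol 7 DAD. The ethanol libraries of 7 DAD lay above those of water, and the difference was 1.34 ± 0.29 (edgeR adjusted p = 0.000291). FSD2 shares a stretch of at least 95% identity with a near copy, AT4G00651, so some of its reads may belong to that gene. FSD3 differed by 1.13 ± 0.23. COPT2 was also far higher in ethanol at 7 DAD, at 8.34, 3.48 and 13.5 CPM against 0.600, 0 and 0.570 CPM in water (log2 4.30 ± 0.73).

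The mitochondrial manganese enzyme MSD1 (AT3G10920) went the other way. It had 271, 249 and 221 CPM in water 0 DAD and 312, 367 and 345 in water 7 DAD, and 279, 218 and 203 at 0 DAD and 196, 214 and 178 CPM at 7 DAD in ethanol. All 3 water libraries of 7 DAD were above every other library of these 4 groups. The rise in water was 0.47 ± 0.11, the change in ethanol -0.25 ± 0.11 and the difference between the arms -0.80 ± 0.11 (edgeR adjusted p = 6.33e-07). CSD3 rose in water by 0.59 ± 0.18, from 22.6, 28.8 and 31.0 to 42.2, 40.5 and 40.6 CPM, and stood at 21.6, 26.1 and 27.8 at 0 DAD and 23.0, 35.1 and 24.6 CPM at 7 DAD in ethanol, with a difference of -0.58 ± 0.18 between the arms at 7 DAD.

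The 3 catalases each had a pattern of their own. CAT2 (AT4G35090), the main leaf catalase that removes photorespiratory peroxide, and CAT3 (AT1G20620), known for expression late in the day and in old leaves, differed in their course over the harvests. CAT2 in water was at 552, 475 and 466 CPM at 0 DAD, 737, 756 and 652 at 1 DAD, 421, 347 and 357 at 3 DAD, 691, 717 and 628 at 5 DAD and 1054, 1144 and 1338 at 7 DAD. In ethanol it was at 355, 392 and 367 at 0 DAD, 646, 617 and 693 at 1 DAD, 380.5, 355 and 335 at 3 DAD, 658, 663 and 552 at 5 DAD and 799, 881 and 675 at 7 DAD. By group mean it was lowest at 0 and 3 DAD, higher at 1 and 5 DAD and highest at 7 DAD in both arms.

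CAT3 in water was at 2174, 2498 and 2572 CPM at 0 DAD, 2233, 2139 and 2558 at 1 DAD, 4052, 4204 and 4250.2 at 3 DAD, 3063, 2683 and 3441 at 5 DAD and 1127, 869 and 1129.6 at 7 DAD. In ethanol it was at 3249.9, 3005 and 3221 at 0 DAD, 2447, 2280.2 and 2087 at 1 DAD, 4221, 3999 and 4225 at 3 DAD, 3000.4, 3365 and 3352 at 5 DAD and 2280.4, 2347 and 2271 at 7 DAD. It was highest at 3 DAD, when CAT2 was low, and the 3 libraries of each group lay close together. Per kb of annotated exon CAT3 stood at 713 ± 62.5 CPM (SD, n = 3) in water 0 DAD, 308 ± 44.2 in water 7 DAD and 679 ± 12.3 in ethanol 7 DAD, against 179.8 ± 17.1, 426 ± 52.4 and 284 ± 37.5 for CAT2. By this measure CAT2 exceeded CAT3 in water 7 DAD, which was not so in water 0 DAD or ethanol 7 DAD. The measure divides counts of the whole gene by its exon length. In plain CPM, replicate 1 of water 7 DAD had less CAT2 (1054) than CAT3 (1127), and replicates 2 and 3 had more.

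The catalases were the only members called between the arms before 7 DAD. At 0 DAD, 3 days into the pretreatment, CAT2 was lower in ethanol by 0.42 ± 0.12 on the log2 scale (edgeR adjusted p = 0.0821) and CAT3 was higher by 0.39 ± 0.11 (edgeR adjusted p = 0.0877), each with no overlap of libraries, beside 1.71% of all genes called (0.764% higher and 0.951% lower). Both calls were lost when only the 2 groups were fitted, when genes with low counts were kept, and without any 1 of the 6 libraries (edgeR adjusted p between 0.111 and 0.235 for CAT2 and between 0.124 and 0.253 for CAT3), while DESeq2 called both (adjusted p = 0.0349 and 0.0117). At 1, 3 and 5 DAD no member was called, beside 0%, 0.992% (0.888% higher and 0.104% lower) and 0% of all genes, and 0, 0 and 1 members had an unadjusted p under 0.05 with edgeR, while DESeq2 also called none. Of the 9 clock genes, 3 were called at 0 DAD, 2 of 5 evening and 1 of 4 morning genes: the evening gene LUX was higher in ethanol at 0 DAD by 1.11 ± 0.21 and PRR5 by 1.01 ± 0.21, and the morning gene CCA1 was lower by 0.76 ± 0.21. The morning gene PRR9 stood at 0.92 ± 0.54, opposite in sign to CCA1 and not called (edgeR adjusted p = 0.505).

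The 5 evening clock genes are given beside CAT3 for the harvests. Their summed level in water was 87.3 to 102 CPM at 0 DAD, 37.4 to 58.5 at 1 DAD, 268 to 325 at 3 DAD, 108 to 135 at 5 DAD and 96.6 to 149 at 7 DAD. In ethanol it was 135 to 169.9 CPM at 0 DAD, 46.5 to 57.0 at 1 DAD, 319 to 356 at 3 DAD, 109 to 155 at 5 DAD and 55.7 to 66.7 at 7 DAD. Both the evening sum and CAT3 were highest at 3 DAD in each arm. At 7 DAD the evening sum was higher in water and CAT3 higher in ethanol. The median summed level of the 4 morning clock genes in water was 130, 153, 123, 151 and 304 CPM over the 5 harvests. In ethanol it was 116, 141, 131, 149 and 176 CPM. The morning sum and CAT2 were both highest at 7 DAD in each arm, and there higher in water than in ethanol. The hour of harvest is not in the labels, and the part of the clock in the catalase values was not tested.

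CAT1 (AT1G20630), a catalase known from seeds and from stress and ABA responses, rose strongly at 7 DAD in water. Its CPM in water was 59.3, 59.5 and 65.6 at 0 DAD and 157, 221 and 265 at 7 DAD, and in ethanol 81.2, 70.2 and 82.3 at 0 DAD and 69.4, 62.2 and 61.0 CPM at 7 DAD. Libraries of 1, 3 and 5 DAD ran from 49.8 to 94.5 CPM in both arms, with calls at 3 DAD in water (0.51) and 1 DAD in ethanol (-0.54), so the water libraries of 7 DAD stood above all others. The rise was 1.80 ± 0.15 in water, ethanol 7 DAD stood at -0.28 ± 0.14 against ethanol 0 DAD, and the arms differed by -1.74 ± 0.15 at 7 DAD (edgeR adjusted p = 4.01e-11). CAT2 differed by -0.59 ± 0.12 and CAT3 by 1.14 ± 0.11 at that day (edgeR adjusted p = 8.66e-05 and 7.28e-10), each with no overlap of libraries.

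**Figure D3:**
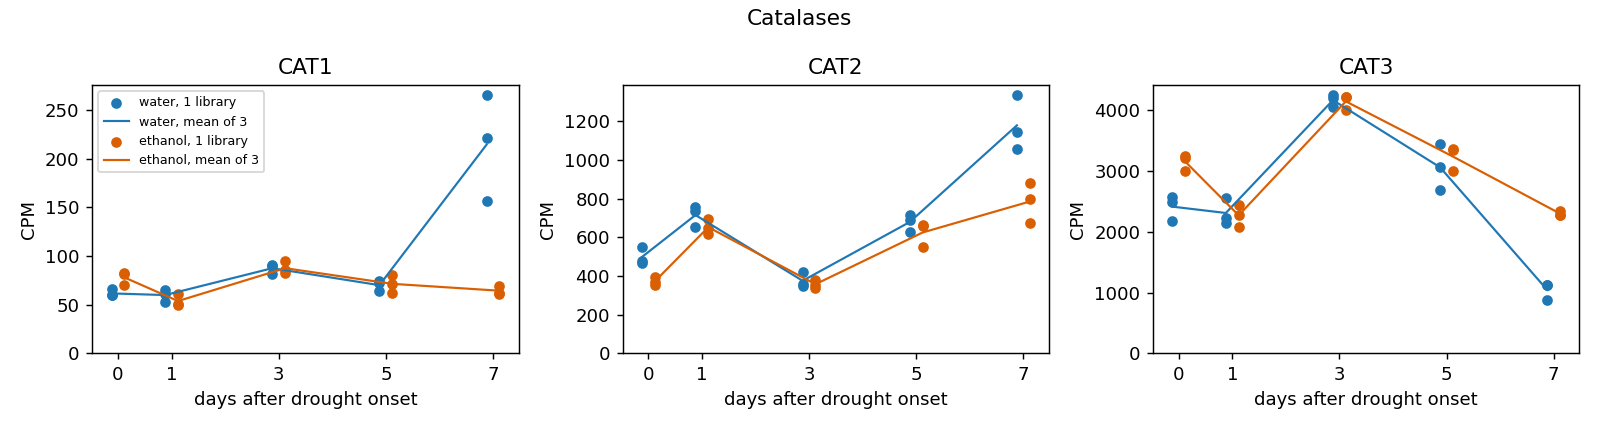
CPM of CAT1, CAT2 and CAT3 in each library against days after drought, with points for libraries, lines for the mean of 3 and colours for the arm. At 7 DAD the water libraries of CAT1 (157 to 265 CPM) and CAT2 lie above those of ethanol, and those of CAT3 (869 to 1129.6 CPM) lie below.

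Among the ascorbate peroxidases, the cytosolic APX1 (AT1G07890), the central peroxide scavenger of the cytosol, had 599.7, 397 and 366 CPM in water 0 DAD and 644, 719 and 574 in water 7 DAD. In ethanol it had 418, 359.8 and 328 at 0 DAD and 410.2, 541 and 374 CPM at 7 DAD. Water 0 DAD replicate 1 stood well above the other libraries of its group, so that the range overlaps with 7 DAD although the rise of 0.51 ± 0.15 was called (edgeR adjusted p = 0.00509). The arms differed by -0.55 ± 0.15 at 7 DAD, with no overlap of libraries.

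APX2 (AT3G09640), a cytosolic peroxidase known to be switched on by heat and strong light, was nearly silent outside water 7 DAD. It had no count in the 3 libraries of water 0 DAD, and its CPM was 5.64, 3.83 and 4.45 in water 7 DAD, from 110 counts, against 0, 0.224 and 0.0862 in ethanol 7 DAD, from 3 counts. No other library was above 0.285 CPM. With 3 counts over the group as the least detectable, it was at least 45.4-fold higher in water 7 DAD than in water 0 DAD, and the ratio of water to ethanol at 7 DAD was 46.6, with a 95% counting interval of 15.5 to 230.0. It was called in both comparisons (edgeR adjusted p = 1.59e-05 and 0.000186). However, APX2 passed the filter on low counts only through the water 7 DAD libraries, where it was high. These calls therefore describe that group and are no separate support, and the counts of members called include APX2.

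The thylakoid peroxidase TAPX (AT1G77490) and the lumen protein APX4 (AT4G09010), an ascorbate peroxidase relative also called TL29, fell in water. TAPX had 110.0, 123 and 135 CPM in water 0 DAD and 54.0, 37.5 and 48.3 in water 7 DAD, and 109.6, 155 and 137 at 0 DAD and 68.1, 76.8 and 90.8 CPM at 7 DAD in ethanol. APX4 had 299, 339.5 and 356 at 0 DAD and 64.5, 52.5 and 38.0 CPM at 7 DAD in water, and 238, 320.0 and 354 at 0 DAD and 150.4, 172 and 207 CPM at 7 DAD in ethanol. For both genes the 3 libraries of water 7 DAD were the lowest, those of ethanol 7 DAD lay between them and the 0 DAD libraries, and only the 0 DAD groups overlapped with each other. The change of APX4 was -2.68 ± 0.17 in water and -0.78 ± 0.16 in ethanol, and the difference between these responses was 1.90 ± 0.23 (edgeR adjusted p = 9.15e-08). The stromal and mitochondrial SAPX (AT4G08390) behaved differently from TAPX, with 61.4, 100.02 and 75.6 CPM in water 7 DAD and 49.8, 42.9 and 59.5 in ethanol 7 DAD, a difference of -0.64 ± 0.17.

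APX3 (AT4G35000), anchored in the peroxisome membrane, kept within a narrow range. It had 167, 171 and 169.9 CPM in water 0 DAD, 159, 157 and 145 in water 7 DAD, 157, 178 and 154 in ethanol 0 DAD and 185, 199.9 and 183 in ethanol 7 DAD. Its libraries ran from 145 to 209 CPM over the whole series. The difference of 0.30 ± 0.09 between the arms at 7 DAD was called (edgeR adjusted p = 0.00808) with no overlap of libraries, but not when only the 2 groups were fitted. APX5 (AT4G35970), at 1.15 to 4.73 CPM, and APX6 (AT4G32320), at 13.1 to 29.0 CPM, were called in no comparison.

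Among the enzymes that recycle ascorbate, DHAR3 and DHAR1 parted in water. DHAR3 (AT5G16710), the chloroplast form, had 182, 199 and 202 CPM in water 0 DAD and 76.5, 56.6 and 55.9 in water 7 DAD, and 152, 199 and 194 at 0 DAD and 133, 147 and 147 CPM at 7 DAD in ethanol. DHAR1 (AT1G19570), placed in the peroxisome and cytosol, had 350.2, 343 and 279.7 at 0 DAD and 745, 587 and 673 CPM at 7 DAD in water, and 329, 318 and 388 at 0 DAD and 538, 847 and 584 CPM at 7 DAD in ethanol. DHAR3 thus fell in both arms with no overlap (-1.62 ± 0.13 in water and -0.35 ± 0.12 in ethanol), while DHAR1 rose in both arms with no overlap. DHAR3 differed by 1.18 ± 0.12 between the arms at 7 DAD (edgeR adjusted p = 3.83e-09), and DHAR1 by -0.03 ± 0.15, which was not called. Part of DHAR1 is near identical to a neighbouring copy, AT1G19550, so reads may be shared between them.

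DHAR1 and MDAR4 (AT3G27820), the MDAR of the peroxisome membrane, climbed in both arms over the days. DHAR1 changed by 0.25, 0.49, 1.1 and 1.04 in water and by 0.30, 0.52, 0.80 and 0.93 in ethanol at 1, 3, 5 and 7 DAD, with every day but 1 DAD called. MDAR4 changed by 0.35, 0.54, 0.90 and 1.19 in water and by 0.69, 0.85, 1.06 and 1.2 in ethanol, all called. Its libraries ran from 59.6 to 67.2 CPM at 0 DAD and from 141 to 152 CPM at 7 DAD in water, and from 43.7 to 54.1 CPM at 0 DAD and from 105 to 123 CPM at 7 DAD in ethanol. Its difference of -0.36 ± 0.12 between the arms at 7 DAD was lost with plain library totals (-0.15). DHAR2 (AT1G75270), the cytosolic DHAR, fell in water (-0.49 ± 0.20, with overlapping libraries) and was not called between the arms at 7 DAD (0.26 ± 0.20).

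MDAR1 (AT3G52880), in the peroxisome and cytosol, had 273, 294 and 248 CPM in water 0 DAD and 441, 466 and 467 in water 7 DAD. In ethanol it had 297, 266 and 236 at 0 DAD and 266, 306 and 246 CPM at 7 DAD. It rose by 0.75 ± 0.10 in water, was not called in ethanol (0.04 ± 0.10) and differed by -0.75 ± 0.10 between the arms at 7 DAD (edgeR adjusted p = 4.98e-07). MDAR2 (AT5G03630), the cytosolic form, had 111, 87.0 and 70.4 at 0 DAD and 72.1, 95.7 and 86.1 CPM at 7 DAD in water and 107, 63.8 and 90.8 at 0 DAD and 66.0, 70.6 and 46.7 CPM at 7 DAD in ethanol, with the arms at 7 DAD not overlapping but close (72.1 CPM in the lowest water library and 70.6 in the highest ethanol library). Its difference of -0.47 ± 0.19 was lost with plain library totals (-0.26), when replicate 2 of water 7 DAD was left out (-0.36) and when replicate 3 of ethanol 7 DAD was left out (-0.29).

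MDAR6 (AT1G63940), of the chloroplast and mitochondria, had 84.1, 61.1 and 55.1 CPM in water 0 DAD and 21.5, 17.7 and 19.3 in water 7 DAD. In ethanol it had 52.2, 57.0 and 46.4 at 0 DAD and 23.6, 24.9 and 34.9 CPM at 7 DAD, below 0 DAD as well. The change was -1.78 ± 0.18 in water and -0.89 ± 0.17 in ethanol, and the arms differed by 0.51 ± 0.18 at 7 DAD, or 0.33 without ethanol 7 DAD replicate 3, where the call was lost (edgeR adjusted p = 0.14). MDAR3 (AT3G09940), a cytosolic form, faded in both arms: it had 102 counts in water 0 DAD and 1 count in water 7 DAD, a ratio of 82.5 with a 95% counting interval of 14.5 to 3290, and its CPM in ethanol went from 10.4, 2.90 and 3.28 to 0.108, 0.337 and 0.

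Glutathione reductase rose in water at 7 DAD in both forms, with the larger fold for GR1 (AT3G24170), of the cytosol and peroxisome. GR1 had 112, 82.7 and 66.8 CPM in water 0 DAD and 312, 459.6 and 324 in water 7 DAD, and 96.5, 63.8 and 49.8 at 0 DAD and 106, 105 and 99.0 CPM at 7 DAD in ethanol. GR2 (AT3G54660), of the chloroplast and mitochondria, had 121, 115 and 109 at 0 DAD and 186, 248 and 212 CPM at 7 DAD in water, and 97.6, 85.5 and 107 at 0 DAD and 102, 126 and 128 CPM at 7 DAD in ethanol. The water libraries of 7 DAD stood above all others for both genes. GR1 rose by 2.07 ± 0.18 in water and 0.58 ± 0.18 in ethanol. The arms differed at 7 DAD by -1.82 ± 0.18 for GR1 (edgeR adjusted p = 1.13e-09) and -0.86 ± 0.13 for GR2 (edgeR adjusted p = 1.34e-06). GR1 overlaps the gene AT3G24180 on the same strand, so reads in the overlap may have been counted for both.

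The glutathione peroxidases held the highest estimate of a rise in water among well expressed members, although that of GR1 was close and not apart by the SEs. GPX2 (AT2G31570), a cytosolic form, had 161, 162 and 139 CPM in water 0 DAD and 751, 639 and 735 in water 7 DAD, and 155, 143 and 136 at 0 DAD and 199, 263 and 168 CPM at 7 DAD in ethanol. Libraries of the other days ran from 123 to 194 CPM. Ethanol 7 DAD overlapped with these at its lowest library and lay below all libraries of water 7 DAD, and ethanol replicate 2 was the highest of its group. The rise was 2.2 ± 0.13 in water and 0.54 ± 0.13 in ethanol, and the arms differed by -1.75 ± 0.13 (edgeR adjusted p = 2.72e-12). Per kb GPX2 went from 172 ± 14.4 CPM (SD, n = 3) in water 0 DAD to 791 ± 67.4 in water 7 DAD, where it and DHAR1 (733 ± 86.7) had the highest means per kb of the 40 and overlapped within their spread, while 2CPA (AT3G11630), highest per kb in water 0 DAD at 827 ± 31.9, had come down to 81.2 ± 21.1. This order depends on the exon length used. In plain CPM, CAT2 (1054 to 1338) and CAT3 (869 to 1130) stood above GPX2 and DHAR1 in water 7 DAD. CAT3 (2174 to 2572 CPM) also stood above 2CPA in water 0 DAD.

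The other glutathione peroxidases differed in timing. GPX6 (AT4G11600), a mitochondrial form, rose by 3 DAD in both arms, by 1.27 ± 0.16 in water and 1.31 ± 0.16 in ethanol (edgeR adjusted p = 8.56e-07 and 4.56e-07), from 89.2 to 143 CPM over the 0 and 1 DAD libraries to 233 to 295 CPM. At 3 DAD 13 members were called in water, 6 higher and 7 lower, beside 19.6% of all genes (9.25% higher and 10.4% lower), and 10 in ethanol, 6 higher and 4 lower, beside 24.6% (13% higher and 11.6% lower). By 7 DAD GPX6 was at 201, 320.2 and 224 CPM in water and 138, 171 and 130.4 in ethanol, a difference of -0.76 ± 0.15. The chloroplast GPX1 (AT2G25080) fell in water, by 0.98 ± 0.13 on the log2 scale to 246 to 325 CPM, and differed by 0.76 ± 0.13 between the arms. The other chloroplast form, GPX7, was low at 0.264 to 8.79 CPM. It was lowest in ethanol 0 DAD (1.91, 0.264 and 2.93 CPM), where replicates 1 and 2 have the smallest library totals of the series, and against that group it was called higher at every later day (1.62, 1.16, 1.21 and 1.79).

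Of the remaining forms, GPX3 (AT2G43350) was higher and GPX5 (AT3G63080) lower in ethanol at 7 DAD (0.43 ± 0.15 and -0.63 ± 0.13), and GPX8 (AT1G63460) was not called between the arms (0.07 ± 0.17) but fell in both (-0.89 ± 0.17 in water and -0.70 ± 0.17 in ethanol). GPX4 (AT2G48150), which was not tested, had 0.840, 1.91 and 3.19 CPM in water 7 DAD and 0.325, 0.337 and 0.517 in ethanol 7 DAD. PER1 (AT1G48130), the seed peroxiredoxin, had counts in 2 libraries of water 7 DAD, 0.840 and 0.638 CPM from 11 counts in all, at least 4.66-fold above ethanol 7 DAD, where it had none. Outside water 7 DAD PER1 had 1 count, in ethanol 0 DAD.

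The chloroplast peroxiredoxins fell in both arms by 7 DAD, and further in water. 2CPA, one of a pair of 2-Cys peroxiredoxins, had 951, 1015 and 950.1 CPM in water 0 DAD and 124, 77.2 and 85.5 in water 7 DAD, and 694, 850.4 and 897 at 0 DAD and 335, 358 and 402 CPM at 7 DAD in ethanol. Its partner 2CPB (AT5G06290) had 225, 219 and 233 at 0 DAD and 40.1, 27.6 and 26.0 CPM at 7 DAD in water, and 180.4, 241 and 231 at 0 DAD and 97.1, 103 and 132 CPM at 7 DAD in ethanol. PRXQ (AT3G26060), a thylakoid peroxiredoxin, had 451, 497 and 426 at 0 DAD and 75.8, 52.3 and 66.1 CPM at 7 DAD in water, and 307, 409 and 422 at 0 DAD and 247, 248 and 276 CPM at 7 DAD in ethanol. In all 3 genes water 7 DAD was lowest without overlap and ethanol 7 DAD between it and the 0 DAD groups.

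The change to 7 DAD was -3.35 ± 0.15 for 2CPA, -2.85 ± 0.16 for 2CPB and -2.82 ± 0.14 for PRXQ in water. In ethanol it was -1.16 ± 0.14, -0.97 ± 0.15 and -0.56 ± 0.13. The difference between the responses was 2.19 ± 0.20, 1.88 ± 0.21 and 2.26 ± 0.18 (edgeR adjusted p = 5.5e-10, 2.66e-08 and 9.21e-11). Lower values came before 7 DAD: 2CPA was called at 3 DAD at -0.52 in water and -0.38 in ethanol, and at 5 DAD at -0.91 and -0.74. At 5 DAD 14 members were called in water (6 higher and 8 lower) and 13 in ethanol (7 higher and 6 lower), beside 33% of all genes in water (16.2% higher and 16.8% lower) and 33.3% in ethanol (16.8% higher and 16.4% lower). With plain library totals these splits were 11 higher and 6 lower, and 10 higher and 5 lower.

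**Figure D4:**
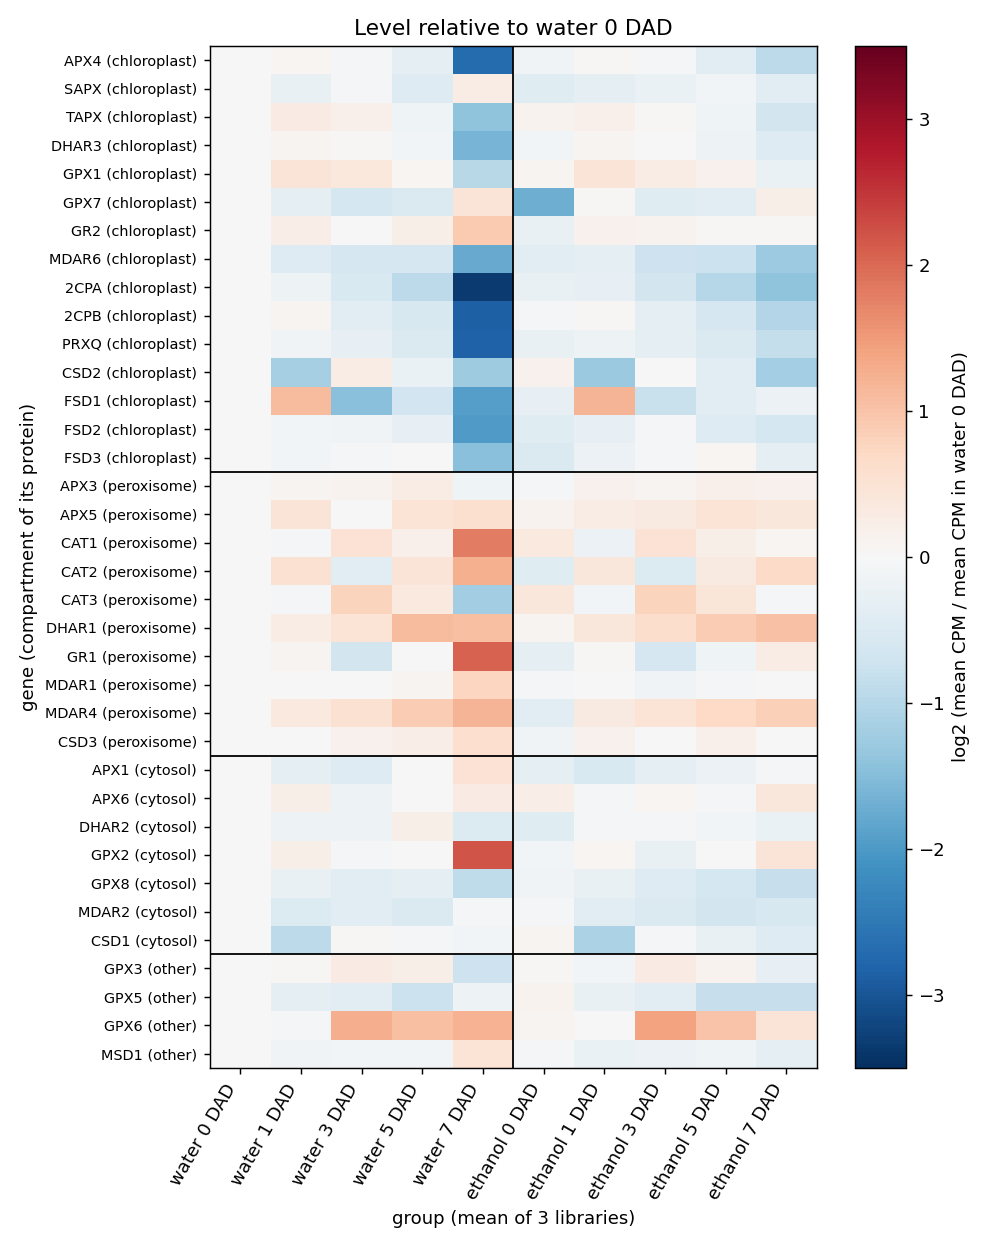
Mean CPM of 36 members in each of the 10 groups, as log2 of the ratio to the water 0 DAD mean (red higher, blue lower), with genes ordered by compartment and family (APX2, MDAR3, GPX4 and PER1, at or near 0 counts in some group, are left out). The water 7 DAD column holds the darkest blue in the chloroplast block, for 2CPA, 2CPB, PRXQ and APX4, and red for most of the peroxisome block.

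In ethanol at 7 DAD 26 members were called against ethanol 0 DAD, 9 higher and 17 lower, beside 41.5% of all genes (22% higher and 19.5% lower), and with plain library totals 22 were called, 11 higher and 11 lower. Of the 15 chloroplast members 9 fell and 2 rose, with a median of -0.35, and of the 10 peroxisomal members 5 rose and 1 fell, with a median of 0.25. Of the 9 cytosolic members 1 rose and 4 fell, with a median of 0.19, and of the 4 tested elsewhere 1 rose and 3 fell, so members of every compartment fell in ethanol. The difference between the arms' responses was called for 24 members, 15 higher and 9 lower in ethanol, beside 50.8% of all genes (27.6% and 23.2%). In the chloroplast 12 of 15 members had the higher response in ethanol and 1, GR2, the lower.

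**Figure D5:**
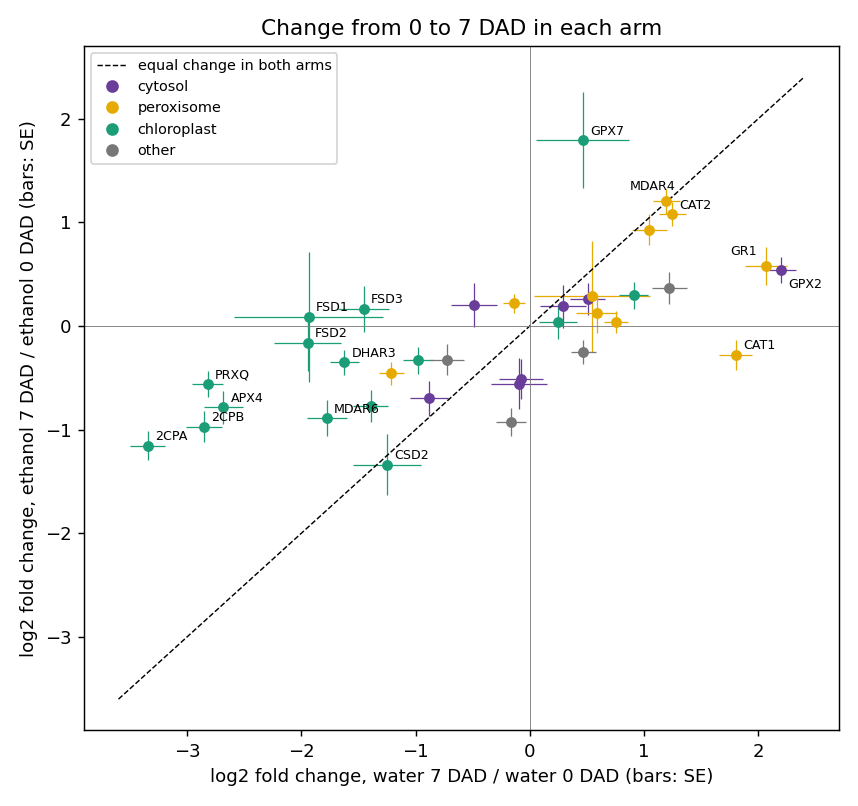
Log2 fold change from 0 to 7 DAD in ethanol (vertical) against that in water (horizontal) for 36 members, with bars for the SE, coloured by compartment, and a dashed line for equal change in both arms. Chloroplast members such as 2CPA (-3.35 in water and -1.16 in ethanol) lie above the line at the left, CAT1, GR1 and GPX2 lie below it at the right, and CSD2, MDAR4 and CAT2 lie near it. The axes share no library.

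Forms of 1 family were also compared inside each library, where the scaling of libraries cancels. The log2 ratio of the chloroplast to the other form was lower in water at 7 than at 0 DAD by 2.68 ± 0.17 for DHAR3 to DHAR1, by 1.95 ± 0.38 for TAPX to APX1, by 1.69 ± 0.20 for MDAR6 to MDAR2, by 1.18 ± 0.19 for GR2 to GR1 and by 1.15 ± 0.18 for CSD2 to CSD1 (difference ± SE, n = 3 against 3), with no overlap of libraries in any of them. Between ethanol and water at 7 DAD the same 5 ratios were higher in ethanol, by 1.24 ± 0.20, 1.32 ± 0.32, 0.98 ± 0.41, 0.94 ± 0.15 and 0.39 ± 0.14, again without overlap. Within ethanol the ratio was lower at 7 than at 0 DAD without overlap for DHAR3 to DHAR1 (-1.25 ± 0.22), TAPX to APX1 (-1.02 ± 0.33) and CSD2 to CSD1 (-0.81 ± 0.21), and overlapped for GR2 to GR1 and MDAR6 to MDAR2. SAPX, another chloroplast ascorbate peroxidase, was not paired with APX1. Its mean per kb was 33.6 CPM in water 0 DAD, 39.9 in water 7 DAD and 25.6 in ethanol 7 DAD. TAPX had 48.8, 18.5 and 31.2 in these groups, and APX1 had 254, 361 and 247. The ascorbate peroxidase ratio thus covers TAPX only. Of the 27 differences tested, over 9 pairs and 3 comparisons, 19 had no overlap, and each of these had an exact two-sided permutation p = 0.1, the smallest that 3 against 3 libraries allow, and an adjusted p of 0.142, so none could pass. The share without overlap among other gene pairs was not computed. Of all genes, 70% were called in water and 41.5% in ethanol at 7 against 0 DAD, and 60.5% between the arms at 7 DAD. The count of 19 is therefore a description only.

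The other 4 pairs were peroxisomal to cytosolic forms and FSD1 to CSD2, both placed in the chloroplast. MDAR1 to MDAR2 was higher by 0.82 ± 0.19 at 7 than at 0 DAD in water, without overlap. APX3 to APX1 was lower by 0.68 ± 0.24 in water, was -0.03 ± 0.17 in ethanol and was higher in ethanol than in water at 7 DAD by 0.86 ± 0.14. CSD3 to CSD1 overlapped between water 0 and 7 DAD (0.69 ± 0.34) and was higher at 7 DAD in ethanol by 0.65 ± 0.33 without overlap. FSD1 to CSD2 overlapped in water (-0.49 ± 0.82), where both genes fell. It was higher at 7 than at 0 DAD in ethanol by 1.91 ± 0.99, and higher in ethanol than in water at 7 DAD by 1.73 ± 0.35, both with no overlap.

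Ethanol 7 DAD was also set beside water 5 DAD. There 12 members were called, 1 higher and 11 lower in ethanol 7 DAD, beside 7.01% of all genes (4.42% higher and 2.59% lower). The one higher was GPX2 (0.45 ± 0.13), and the lower ones included CSD2 (-0.97 ± 0.29), MDAR6 (-0.66 ± 0.17), GPX6 (-0.59 ± 0.15), APX4 (-0.56 ± 0.16) and 2CPA (-0.50 ± 0.14), none of them 2-fold. Of the 11, 7 were chloroplast members. The count fell to 3 when the 2 groups were fitted alone and without water 5 DAD replicate 3, and to 4 without water 5 DAD replicate 1 or ethanol 7 DAD replicate 1. The groups differ in day as well as in pretreatment, which cannot be told apart here.

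Other genes of the pathway were read from lists, whose counts stand beside 70% of all genes called in water from 0 to 7 DAD (34.5% higher and 35.5% lower) and 60.5% between the arms at 7 DAD (32% higher and 28.6% lower). With so many genes called, the counts of these short lists are a description only. Of the 6 genes for type II peroxiredoxins and sulfiredoxin, 4 rose and 2 fell in water at 7 DAD. The rises of PRXIIC (1.86 ± 0.65) and PRXIID (3.14 ± 1.00) had wide SEs. These genes, PRXIIB and SRX were also called higher in ethanol from 0 to 7 DAD. PRXIIE, the chloroplast form, fell by 2.50 ± 0.15 on the log2 scale in water and was higher by 1.49 ± 0.15 in ethanol at 7 DAD, and SRX, sulfiredoxin, which repairs over-oxidized peroxiredoxins, rose by 2.08 ± 0.18 and was lower by 1.12 ± 0.17 in ethanol. Of the 2 glutathione synthesis genes both were called lower in water at 7 DAD, GSH2 at -1.85 ± 0.20 and GSH1 at -0.49 ± 0.26. The GSH1 call was close to the threshold (edgeR adjusted p = 0.0991). Between the arms at 7 DAD GSH2 was higher in ethanol by 0.87 ± 0.19, and GSH1 was not called (0.26 ± 0.26).

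Of the 7 ascorbate synthesis genes 3 rose and 2 fell in water at 7 DAD, and 2 were higher and 2 lower in ethanol than in water at 7 DAD, or 71.4% and 57.1% of the list, near the 70% and 60.5% of all genes. VTC2, the controlling step of ascorbate synthesis, rose in both arms, from 71.9, 71.6 and 70.7 to 221, 286 and 232 CPM in water and from 62.3, 42.7 and 48.7 to 191, 165 and 208 CPM in ethanol. It was lower in ethanol already at 0 DAD, by 0.48 ± 0.13 (edgeR adjusted p = 0.0842). VTC4, the phosphatase that follows it, went from 50.6, 71.0 and 61.0 to 19.7, 12.3 and 12 CPM in water and from 37.2, 49.9 and 35.5 to 56.7, 42.5 and 51.0 CPM in ethanol, with a difference of 1.77 ± 0.17 at 7 DAD.

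Of the 10 genes for peroxide sources 7 were tested, and 3 rose and 3 fell in water at 7 DAD (85.7% of those tested, beside 70% of all genes). The fall was greatest for RBOHD, the NADPH oxidase that makes superoxide at the cell surface (-2.38 ± 0.36), and the rise for ACX1, an acyl-CoA oxidase of peroxisomal fatty acid breakdown (2.61 ± 0.18). Between the arms at 7 DAD ACX1 was lower by 2.45 ± 0.17 in ethanol, and GOX1, a glycolate oxidase that makes peroxide in photorespiration, was higher by 1.65 ± 0.13. Of the 11 copper economy genes 9 were tested, and at 7 DAD 3 were higher in ethanol than in water (COPT2 and the plastocyanins PETE1 and PETE2, 2.33 and 2.33) and 1 lower (CCH, -0.52 ± 0.19), or 44.4% of those tested beside 60.5% of all genes.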

How the data were processed

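Shoot RNA of 30 libraries was read as the gene counts that the authors deposited. By the study's methods, multiplexed stranded libraries were sequenced, trimmed, aligned to TAIR10 with HISAT2 and counted per gene with featureCounts, with introns included and reads allowed to count for overlapping genes, so shared reads can raise both genes. The deposited normalized table was not used. Counts were fitted with edgeR 4.0.16 in R 4.3.3: genes with low counts were removed by group (19249 of 27417 kept, with 99.95% of counts), totals were scaled by TMM, and 1 mean was fitted per group. Library totals were 3625884 to 14735127 counts, which sets the precision, and CPM use these totals times their TMM factors. The labels do not say that replicates are separate plants, so p-values measure only the spread between these libraries. Counting intervals are exact at 95% and cover counting error only, and a count of 0 was read as at most 3 counts over a group. Log2 ratios of forms, with 0.5 added to each count, were compared by exact two-sided permutation tests. DESeq2 1.42.0, library totals, a weaker filter, the replicate number as a block, the compared groups alone and each library left out were alternatives. All 40 members may be named. Every library is given for the members called between the arms before 7 DAD, for the 6 highest and 6 lowest differences at 7 DAD and for the paired forms, at 0 and 7 DAD at least. The members and gene lists were chosen with earlier results of these data known. The scripts were tested on simulated data.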

Additional observations from a re-analysis of the deposited data

Results flagged for a closer look

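The change from 0 to 7 DAD differed between the ethanol and the water arm for 24 of the 38 members tested, by an interaction term in the edgeR fit (adjusted p under 0.1), beside 50.8% of all genes tested. The values here are the ethanol change minus the water change on the log2 scale. In the chloroplast it was higher for PRXQ (2.26), 2CPA (2.19), FSD1 (2.03), APX4 (1.90), 2CPB (1.88), FSD2 (1.78), FSD3 (1.62), GPX7 (1.33), DHAR3 (1.27), MDAR6 (0.89), GPX1 (0.65) and TAPX (0.63), and lower for GR2 (-0.61). In the peroxisome it was higher for CAT3 (0.75) and APX3 (0.36) and lower for CAT1 (-2.08), GR1 (-1.49) and MDAR1 (-0.72). In the cytosol it was higher for DHAR2 (0.69) and lower for GPX2 (-1.66) and APX2, whose fitted value of -7.69 depends on the prior count because it had no count in water 0 DAD. APX2 also passed the filter only through water 7 DAD, where it was high. Elsewhere it was lower for GPX6 (-0.86), GPX5 (-0.76) and MSD1 (-0.72).

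For FSD1 the call was lost without water 0 DAD replicate 2 (1.87) or 3 (1.65), water 7 DAD replicate 2 (1.90) or 3 (1.91), ethanol 0 DAD replicate 1 (1.56) or ethanol 7 DAD replicate 3 (1.89). The call of GPX7 was lost in 8 alternatives. That of DHAR2 was lost in 5, that of APX3 when only the 4 groups were fitted, and that of APX2 without ethanol 0 DAD replicate 3.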

How the results depend on the processing

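No call of a member reversed under DESeq2, library totals, a weaker filter, the replicate block, the compared groups alone or any left-out library. Of the values recomputed for single members, 6170 kept their side of the threshold, 249 lost the call and 63 gained it. A change of direction was counted only where a value was called, so uncalled values may have changed sign. The 2 calls at 0 DAD between the arms became 0 when genes with at least 1 count were kept and 0 with the 2 groups fitted alone, and ranged from 0 to 1 without single libraries, where both CAT2 and CAT3 were lost each time and the 1 call, without ethanol 0 DAD replicate 3, was GPX7. The 12 calls of ethanol 7 DAD against water 5 DAD became 3 with the groups alone and ranged from 3 to 10. Without single libraries the calls in water ranged from 2 to 7 at 1 DAD (2 without water 0 DAD replicate 1, 3 without water 1 DAD replicate 3), 7 to 13 at 3 DAD (7 without water 0 DAD replicate 1), 10 to 15 at 5 DAD and 29 to 32 at 7 DAD. In ethanol they ranged from 8 to 13, 5 to 9 (5 without ethanol 3 DAD replicate 1), 11 to 16 and 20 to 22 at the same days. Those between the arms at 7 DAD ranged from 28 to 31, those of the difference of responses from 22 to 25, and those at 1, 3 and 5 DAD stayed at 0. With library totals the median of all genes moved from 0.05 to 0.26 for ethanol against water at 7 DAD and the share of calls that were higher from 52.8% to 63.0%, while members split 15 higher and 13 lower. That share moved from 49.2% to 64.8% in water and from 50.6% to 65.7% in ethanol at 5 DAD, and from 53.0% to 70.5% in ethanol at 7 DAD.

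The log2 ratio of APX3 to APX1 between ethanol 7 and 0 DAD, -0.032, ranged from -0.15 to 0.083 without single libraries: it was 0.083 without replicate 2 of ethanol 7 DAD and, for ethanol 0 DAD, 0.045 without replicate 2 and 0.0091 without replicate 3, and the cause was not tested. With the replicate number as a block, 29 members were called between the arms at 7 DAD, 30 in water and 26 in ethanol at 7 DAD against 0 DAD, 3 between the arms at 0 DAD (CAT2, CAT3 and GPX7) and 24 for the difference of responses. Libraries with the same number did not deviate together in all 3 pairs of any comparison, so the numbers were not taken as pairs. Depth limits APX2, MDAR3, GPX4, GPX7 and PER1, which had few counts.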
